A study of Mus musculus with 8 samples.

Results

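Ppargc1a and the genes of the mitochondrial respiratory chain were followed in fibroblasts that lack their own Daxx and had received either Daxx or a vector. The set held 5 regulators (Ppargc1a, Ppargc1b, Nrf1, Tfam and Esrra) and 80 genes named as subunits of the respiratory chain or of ATP synthase, which makes 85 of the 19938 genes measured. The subunit genes were taken by symbol: Ndufa, Ndufb, Ndufc, Ndufs and Ndufv for complex I (34 genes), Sdha to Sdhd for complex II (4), symbols starting with Uqcr for complex III (8), Cox4 to Cox8 for complex IV (17) and Atp5 for ATP synthase, complex V (17). Each gene was read from a probe set with a single gene symbol, and the brightest on average was used where a gene had several (17 genes). Many subunit genes have processed pseudogenes, and whether the probes also bind their transcripts was not tested. Another 2 genes that the symbols would include, Cox7c and Ndufb4, were found only on probe sets shared with other genes and were left out.

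The study looked for genes regulated downstream of Daxx, a histone chaperone and transcriptional regulator. It used 8 Affymetrix arrays of total RNA from mouse embryonic fibroblasts, connective tissue cells grown from embryos, of the FVB/N background. All 8 samples carried the Daxx knockout, so none is a wild-type control. The DaxxA group (2 arrays) and the DaxxB group (2 arrays) were knockout cells complemented with Daxx, and the vector group (4 arrays) was knockout cells complemented with a vector. The labels do not give the meaning of A and B, the construct or its promoter, or whether samples of a group were separate cultures. The spread behind every p-value is that between these samples, and it may be technical only. The arrays measured RNA of whole cultures, so fewer cells of a kind and less RNA per cell cannot be told apart.

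The inner mitochondrial membrane holds 4 complexes that pass electrons from NADH and succinate to oxygen, and ATP synthase, which uses the proton gradient they build. PGC-1 alpha, the product of Ppargc1a, and its relative PGC-1 beta, the product of Ppargc1b, are coactivators that bind no DNA themselves and act through factors such as NRF1, ERR alpha (Esrra) and the PPARs. These factors bind many nuclear genes of the respiratory chain, and NRF1 and GABP bind the gene of Tfam, the factor that transcribes and packages mitochondrial DNA. PGC-1 alpha is best known from brown fat, muscle and liver, where it is induced by cold, exercise and fasting.

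Promoters were examined for the sequences these factors recognise, and 5 windows are shown: Ppargc1a itself, the complex I genes Ndufa6 and Ndufa8, and Sdha and Tfam, which hold recognition sequences and were not called for Daxx minus vector. The windows are from RefSeq on GRCm38.p6, run from 250 bases before to 50 bases after the annotated start, and are all on the minus strand. They are Ppargc1a at chr5:51567676-51567975, Ndufa6 at chr15:82354242-82354541, Ndufa8 at chr2:36049289-36049588, Sdha at chr13:74350191-74350490 and Tfam at chr10:71237995-71238294. Capitals mark the NRF1 sequence (GCGCA, any base, then GCGC) in Ndufa6, Ndufa8 and Sdha, on either strand, and the GABP sequence CCGGAAG in Tfam. The Ppargc1a window held none of the 4 sequences searched.
Ppargc1a: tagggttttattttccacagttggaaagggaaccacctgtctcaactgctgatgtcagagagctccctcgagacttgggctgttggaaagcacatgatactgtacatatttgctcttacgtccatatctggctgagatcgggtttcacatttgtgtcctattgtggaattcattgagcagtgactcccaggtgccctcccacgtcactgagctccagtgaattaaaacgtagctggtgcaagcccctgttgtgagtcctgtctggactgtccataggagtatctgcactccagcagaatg
Ndufa6: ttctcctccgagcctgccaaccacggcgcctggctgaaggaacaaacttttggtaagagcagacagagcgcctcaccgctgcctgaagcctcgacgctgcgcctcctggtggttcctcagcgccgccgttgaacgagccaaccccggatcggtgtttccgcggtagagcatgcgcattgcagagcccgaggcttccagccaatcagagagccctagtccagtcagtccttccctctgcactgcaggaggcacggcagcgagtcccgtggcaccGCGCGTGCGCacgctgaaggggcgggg
Ndufa8: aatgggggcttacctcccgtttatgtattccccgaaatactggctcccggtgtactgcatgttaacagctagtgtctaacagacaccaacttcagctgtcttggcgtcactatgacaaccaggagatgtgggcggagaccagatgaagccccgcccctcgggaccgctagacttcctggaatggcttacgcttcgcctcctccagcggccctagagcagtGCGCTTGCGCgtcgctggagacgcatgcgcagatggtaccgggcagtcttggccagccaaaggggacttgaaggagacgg
Sdha: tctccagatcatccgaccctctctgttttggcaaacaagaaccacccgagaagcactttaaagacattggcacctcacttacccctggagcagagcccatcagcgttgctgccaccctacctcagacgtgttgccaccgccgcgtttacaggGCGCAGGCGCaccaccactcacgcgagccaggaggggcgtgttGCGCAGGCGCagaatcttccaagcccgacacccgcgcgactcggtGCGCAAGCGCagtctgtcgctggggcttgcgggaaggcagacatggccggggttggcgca
Tfam: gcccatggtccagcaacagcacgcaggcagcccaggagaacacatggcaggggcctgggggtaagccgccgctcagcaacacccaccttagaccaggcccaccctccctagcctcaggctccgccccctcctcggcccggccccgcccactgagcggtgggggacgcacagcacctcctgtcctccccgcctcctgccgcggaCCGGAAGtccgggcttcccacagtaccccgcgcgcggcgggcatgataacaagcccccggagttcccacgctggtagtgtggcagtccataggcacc

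The promoter table held 70 of the 85 genes, and 71 windows for 66 of the 80 subunit genes. The NRF1 sequence stood in 17 of those 71 windows (23.9%), against 4.6% of all 32851 promoter windows in the table. The GABP sequence stood in 17 (23.9%) against 8.86%, the cAMP response element TGACGTCA in 4 (5.63%) against 1.79%, and the ERR sequence TCAAGGTCA in 2 (2.82%) against 0.423%. Both strands were searched, and none of the 4 sequences contains another. In Sdha, the flavoprotein subunit of complex II, the NRF1 sequence occurred 3 times, starting at positions -98, -55 and -10 from the start. A match describes the letters in a window and not a bound site.

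One array needs to be named before the values. Vector replicate 2 had an interquartile range of 2.79 log2 units against 3.31 to 3.39 in the other 7 arrays, with low signals raised and high signals lowered relative to the other vector arrays. With all genes divided by level into 5 equal groups, its median deviation was 0.49 in group 1, the dimmest, -0.21 in group 4 and -0.11 in group 5. Of the 80 subunit genes, 19 lay in group 4 and 45 in group 5. It gave the lowest of the 8 values for 49 of the 80 subunit genes. Results are given on all 8 arrays and on 7 arrays without it. The Daxx probe set itself gave 7.35 ± 0.0964 in the Daxx arrays and 7.15 ± 0.216 in the vector arrays (SD, n = 4 each), with an exact two-sided permutation p of 0.143 where 0.0286 is the smallest possible, so directions rest on the labels. All 10 fibroblast markers read above the 95th percentile of olfactory receptor genes (6.07), used as a level for genes that fibroblasts are not known to use.

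Ppargc1a was lower in every Daxx array than in every vector array. Its log2 signal was 7.07 and 7.08 in DaxxA, 7.05 and 6.95 in DaxxB, and 8.44, 8.27, 8.31 and 8.40 in vector. The 4 Daxx arrays lay close together, more than 1 log2 unit under the lowest vector array, and vector replicate 2 was near the other vector arrays for this gene. The means were 7.04 ± 0.0624 in Daxx and 8.35 ± 0.0794 in vector (SD, n = 4 each), and Ppargc1a fell by 1.32 on the log2 scale (SE 0.0602, 95% interval -1.45 to -1.18, 2.49-fold, limma adjusted p = 2.02e-05). On 7 arrays it fell by 1.34 (2.54-fold, adjusted p = 1.01e-07). This difference was the 19th lowest of 19938 genes on 8 arrays and the 21st lowest on 7.

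A second probe set of Ppargc1a gave the same direction at a dimmer level. It read 5.07 and 4.92 in DaxxA, 4.69 and 5.02 in DaxxB, and 5.71, 5.74, 5.84 and 5.69 in vector. It fell by 0.82 (SE 0.0864, limma adjusted p = 0.00102 over 21789 probe sets), and its groups did not overlap. All its values lay under 6.07, the level of the olfactory receptor genes, where RMA compresses differences.

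**Figure D1:**
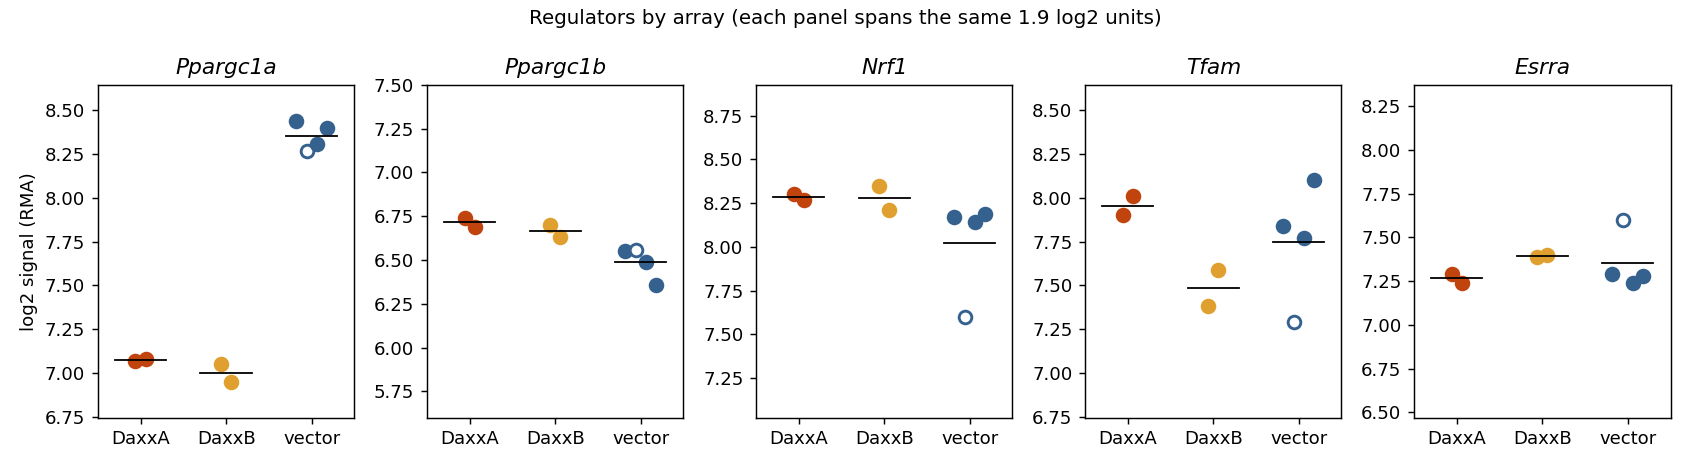
Log2 signal (RMA) of the 5 regulators in each array, by group (DaxxA 2 arrays, DaxxB 2, vector 4). Points are arrays, the open point is vector replicate 2, bars are group means, and every panel spans the same 1.9 log2 units. The 4 Daxx arrays of Ppargc1a lie between 6.95 and 7.08, under vector arrays between 8.27 and 8.44.

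None of the other 4 regulators passed the test on 8 arrays. Ppargc1b, which encodes the second coactivator, read 6.74 and 6.69 in DaxxA, 6.70 and 6.63 in DaxxB, and 6.55, 6.56, 6.49 and 6.36 in vector. All 4 Daxx values lay above all 4 vector values, but by little: the difference was 0.20 (SE 0.0605, limma adjusted p = 0.125). On 7 arrays Ppargc1b rose by 0.22 (adjusted p = 0.0214). It therefore lay on the opposite side to Ppargc1a, with a difference on the log2 scale far smaller than that of Ppargc1a.

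Nrf1, the gene of nuclear respiratory factor 1, read 8.30 and 8.27 in DaxxA, 8.35 and 8.21 in DaxxB, and 8.17, 7.60, 8.14 and 8.19 in vector. Its difference of 0.26 (limma adjusted p = 0.393) shrank to 0.12 (adjusted p = 0.135) without vector replicate 2, the array at 7.60. Esrra, the gene of the nuclear receptor ERR alpha, read 7.29 and 7.24 in DaxxA, 7.39 and 7.40 in DaxxB, and 7.29, 7.60, 7.24 and 7.28 in vector. Its groups overlapped and the difference was -0.027 (adjusted p = 0.894), or 0.056 on 7 arrays (adjusted p = 0.57). For both genes the vector array that differed from the rest was replicate 2.

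Tfam varied more between arrays of a group than the other regulators. It read 7.90 and 8.01 in DaxxA, 7.38 and 7.59 in DaxxB, and 7.84, 7.29, 7.77 and 8.10 in vector. DaxxA lay within the range of the vector arrays and DaxxB under all vector arrays but replicate 2. Against vector, the pooled Daxx difference was -0.028 (95% interval -0.46 to 0.40, limma adjusted p = 0.952), and -0.18 on 7 arrays (adjusted p = 0.477).

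For Daxx minus vector, no gene encoding a subunit was called lower alongside Ppargc1a. In DaxxB alone 2 were called lower on 7 arrays, as given below. Of the 80 subunit genes, 2 rose, 0 fell and 78 did not pass on 8 arrays, where 4.52% of all genes were called (1.8% higher and 2.73% lower). Those that rose were Uqcrq of complex III and Atp5mpl of ATP synthase. On 7 arrays 9 rose, 0 fell and 71 did not pass, where 5.26% of all genes were called higher and 7.57% lower. The median difference of the 80 genes was 0.072 on 8 arrays and 0.054 on 7, beside -0.028 and 0.015 over all genes.

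Small positive values were common among the subunit genes. A value above 0 was found for 63 of 80 (78.8%) on 8 arrays, against 41.8% of all genes, and for 58 of 80 (72.5%) on 7 arrays, against 57.1% of all genes. In 18 of 80 (22.5%) all Daxx values lay above all vector values and in 0 below, where 8.02% and 6.79% of all genes did so. On 7 arrays 20 (25%) lay above and 1 below, against 11.5% and 12.9% of all genes. The residual SD between arrays of a condition had a median over the subunit genes of 0.104 log2 units on 8 arrays and 0.0726 on 7.

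Taken 1 gene at a time, the 95% interval of a difference shows how far a subunit gene could lie below the vector arrays. The intervals are not joint bounds for all 80 genes. The lowest 95% bound among them was -0.71, for Cox7b2 on 8 arrays, and -0.45, for Uqcr11 on 7 arrays. Cox7b2 read under 6.07 on average, and vector replicate 2 gave 5.72 for it against 4.63 to 4.65 in the other vector arrays. The interval of Ppargc1a ran from -1.45 to -1.18, so it did not overlap that of any subunit gene on 8 arrays. The median SE of a subunit gene's difference was 0.0736 on 8 arrays and 0.0554 on 7, so differences near 0.1 were not resolved for most of them.

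**Figure D2:**
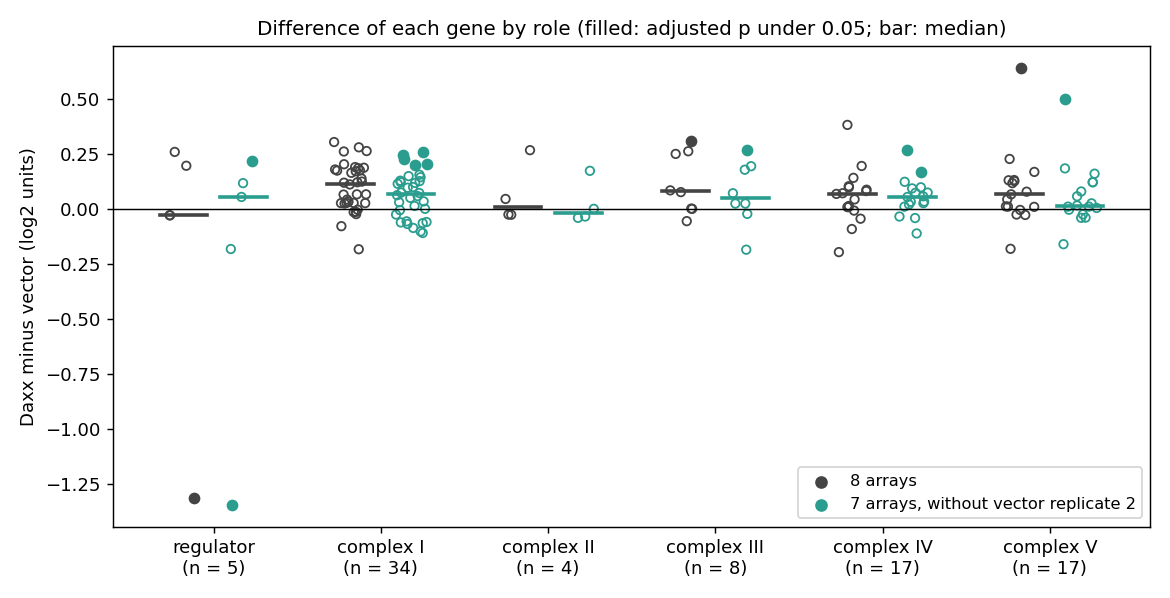
Difference Daxx minus vector (log2 units, vertical axis) of each of the 85 genes, by role; dark points are 8 arrays, green points 7 arrays without vector replicate 2, filled points have an adjusted p under 0.05 and bars are medians. Ppargc1a lies near -1.3 on both, while complex I has a median of 0.12 on 8 arrays and 0.07 on 7.

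Uqcrq, a small subunit of complex III, read 8.75 and 8.81 in DaxxA, 8.81 and 8.75 in DaxxB, and 8.43, 8.35, 8.50 and 8.59 in vector. The groups did not overlap, and the Daxx arrays differed from each other by less than 0.1. Uqcrq rose by 0.31 (SE 0.0627, 1.24-fold, limma adjusted p = 0.0273), and by 0.27 on 7 arrays (adjusted p = 0.00462). The call on 8 arrays was lost when vector replicate 1, vector replicate 3 or any 1 of the 4 Daxx arrays was left out, with adjusted p-values up to 0.0982 and differences of 0.30 to 0.32.

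Atp5mpl, which encodes a small proteolipid of ATP synthase, read 8.87 and 8.92 in DaxxA, 9.08 and 9.05 in DaxxB, and 8.52, 7.91, 8.51 and 8.40 in vector. The Daxx arrays lay above all vector arrays, and vector replicate 2 was the lowest of the 8. Atp5mpl rose by 0.64 (SE 0.133, 1.56-fold, limma adjusted p = 0.0303), and by 0.50 on 7 arrays (1.42-fold, adjusted p = 0.000335). The call was lost when vector replicate 3, vector replicate 4 or any 1 of the 4 Daxx arrays was left out, with adjusted p-values up to 0.108.

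Complex I, which takes electrons from NADH, had 0 of 34 genes called for Daxx minus vector on 8 arrays and 5 called higher on 7. Over all genes 1.8% were called higher and 2.73% lower on 8 arrays, and 5.26% and 7.57% on 7. The counts for the other complexes and the isoform pairs below are also for Daxx minus vector and stand beside the same shares. Its median difference was 0.12 on 8 arrays and 0.07 on 7. Ndufa7, an accessory subunit and the highest of the complex, read 9.34 and 9.44 in DaxxA, 9.55 and 9.49 in DaxxB, and 9.16, 9.01, 9.29 and 9.13 in vector. Its difference was 0.31 (SE 0.0739, limma adjusted p = 0.0559), and it rose by 0.26 on 7 arrays (adjusted p = 0.0169). Ndufa13, an accessory subunit also known as GRIM-19, was the lowest and read 9.62 and 9.36 in DaxxA, 9.56 and 9.62 in DaxxB, and 9.62, 9.94, 9.74 and 9.59 in vector. Its groups overlapped, with a difference of -0.18 (adjusted p = 0.435) on 8 arrays and -0.11 (adjusted p = 0.39) without vector replicate 2, the array at 9.94.

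The other 4 complex I genes called on 7 arrays were accessory subunits as well. Ndufa6, whose promoter is shown above, read 8.78 and 8.81 in DaxxA, 8.84 and 8.74 in DaxxB, and 8.45, 8.43, 8.61 and 8.62 in vector. It rose by 0.23 on 7 arrays (limma adjusted p = 0.0151), while on 8 arrays the difference was 0.26 with an adjusted p of 0.0516. All Daxx values of Ndufa6 lay above all vector values, replicate 2 included.

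Ndufa8, also shown above, read 9.37 and 9.34 in DaxxA, 9.46 and 9.57 in DaxxB, and 9.14, 9.11, 9.18 and 9.25 in vector. It rose by 0.25 on 7 arrays (limma adjusted p = 0.0222), against an adjusted p of 0.0607 for 0.27 on 8 arrays. Ndufb11 rose by 0.20 (adjusted p = 0.0134) and its second probe set by 0.28 (adjusted p = 0.00997 over all probe sets), both on 7 arrays. Ndufs5 rose by 0.20 on 7 arrays (adjusted p = 0.0454). In each of these 5 complex I genes the 4 Daxx values were above the 4 vector values. The 5 genes are named because they were called, so this separation and their similar differences follow in part from that choice. Over the 34 genes of the complex the separation held for 7 on 8 arrays, where it held for 8.02% of all genes.

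Complex II, the succinate dehydrogenase that also serves the citrate cycle, had 0 of 4 genes called for Daxx minus vector on either set of arrays. Sdhb, its iron-sulfur subunit, read 9.33 and 9.21 in DaxxA, 9.43 and 9.25 in DaxxB, and 9.16, 8.76, 9.09 and 9.14 in vector. The difference was 0.27 (limma adjusted p = 0.211), and 0.17 (adjusted p = 0.07) without vector replicate 2, the array at 8.76. Sdhd, a membrane anchor, differed by -0.025 (adjusted p = 0.849), and Sdha, the gene with 3 NRF1 sequences, by -0.024 (adjusted p = 0.834). The values of Sdha overlapped, at 10.38, 10.37, 10.47 and 10.40 in the Daxx arrays and 10.42, 10.38, 10.46 and 10.45 in the vector arrays. In complex III, Uqcr11 lay lowest, with a difference of -0.054 on 8 arrays (adjusted p = 0.884) and -0.18 on 7 (adjusted p = 0.392).

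Complex IV, cytochrome c oxidase, had 0 of 17 genes called on 8 arrays and 2 called higher on 7. Cox7a2l, which encodes a factor that joins complexes into supercomplexes, read 8.03 and 8.19 in DaxxA, 8.17 and 7.97 in DaxxB, and 7.76, 7.36, 7.88 and 7.83 in vector. Its difference was 0.38 (limma adjusted p = 0.125), and it rose by 0.27 on 7 arrays (adjusted p = 0.0188). A second Cox7a2l probe set gave 0.12 on 8 arrays (adjusted p = 0.61) and 0.06 on 7 (adjusted p = 0.661), so its probe sets did not show the same. Cox5b, a nuclear-encoded subunit, rose by 0.17 on 7 arrays (adjusted p = 0.0444), against 0.14 on 8 (adjusted p = 0.251). Its second probe set gave 0.16 on 7 arrays and did not pass (limma adjusted p = 0.0805 over all probe sets).

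Several complex IV subunits exist as a broadly expressed form and a form of muscle, lung or germ cells, and none of the 12 genes in these 6 pairs was called for Daxx minus vector on 8 or 7 arrays. Cox4i1, a broadly expressed form, read 9.28, 9.37, 9.34 and 9.35 in the Daxx arrays and 9.20, 8.85, 9.23 and 9.28 in the vector arrays. Its difference was 0.20 (limma adjusted p = 0.371), and 0.10 (adjusted p = 0.181) without vector replicate 2, the array at 8.85. Its lung and hypoxia form Cox4i2 differed by 0.10 (adjusted p = 0.656). The muscle forms Cox6a2 and Cox7a1 differed by -0.043 and 0.015 on 8 arrays and by 0.028 and 0.125 on 7, and their partners Cox6a1 and Cox7a2 by 0.073 and 0.010 on 8 arrays and 0.059 and -0.040 on 7. Cox8b, a muscle form, and the germ cell forms Cox6b2 and Cox7b2 read under 6.07 on average, as did Cox8c, so these 4 of the 85 genes gave no more than the level of olfactory receptor genes. The partner forms Cox6b1, Cox8a and Cox7b differed by 0.105, -0.006 and -0.090 on 8 arrays, and by 0.012, -0.033 and -0.110 on 7.

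Complex V had Atp5mpl as the 1 called gene of 17, on 8 arrays and on 7. Atp5md, a small subunit that helps ATP synthase form dimers, lay lowest and read 12.48 and 12.61 in DaxxA, 12.28 and 12.45 in DaxxB, and 12.56, 12.70, 12.62 and 12.67 in vector. The groups overlapped by a single DaxxA array, and the difference of -0.18 did not pass (limma adjusted p = 0.288). The median difference of the 17 genes was 0.068 on 8 arrays and 0.017 on 7.

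**Figure D3:**
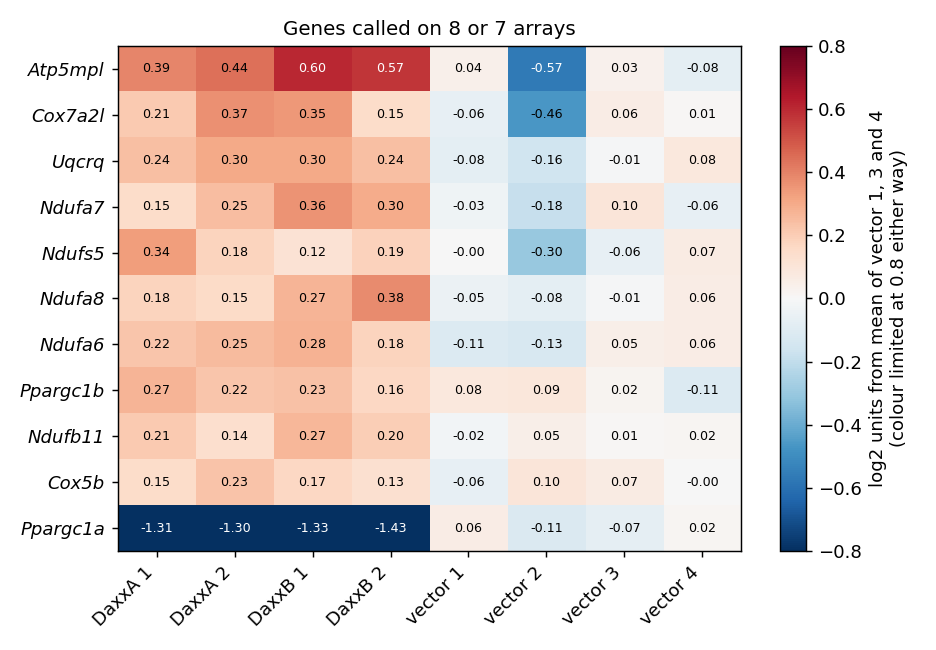
Deviation of each array from the mean of vector replicates 1, 3 and 4 (log2 units, red higher and blue lower, colour limited at 0.8) for the 11 genes called on 8 or 7 arrays. Ppargc1a is lower by 1.30 to 1.43 in the 4 Daxx arrays, and the other 10 genes are higher in all 4.

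Per array, the median deviation of the 80 subunit genes from the mean of vector replicates 1, 3 and 4 was 0.035 and 0.051 in DaxxA, 0.057 and 0.071 in DaxxB, and -0.035, -0.129, 0.008 and 0.028 in vector. The lowest Daxx array stood at 0.035 and the highest vector array at 0.028. Vector replicates 1, 3 and 4 are part of the mean they are compared with, which draws their deviations toward 0. The order of these arrays therefore does not show that the conditions separate. The pooled SD between arrays of a condition was 0.0498 for the same median over all 85 genes. Over all genes the same medians were -0.005 and -0.013 in DaxxA, 0.041 and 0.023 in DaxxB, and -0.002, 0.042, -0.005 and 0.008 in vector. Subunit genes with the NRF1 sequence had a median difference of 0.13 on 8 arrays (16 genes), against 0.056 in those without (50 genes), and 0.092 against 0.034 on 7 arrays. With the GABP sequence the medians were 0.073 against 0.070 on 8 arrays and 0.012 against 0.064 on 7 (17 and 49 genes). With the cAMP response element they were 0.056 against 0.072 on 8 arrays and 0.054 against 0.059 on 7 (4 and 62 genes). With the ERR sequence they were 0.102 against 0.072 on 8 arrays and 0.076 against 0.059 on 7 (2 and 64 genes). These medians are descriptions of the windows at hand.

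**Figure D4:**
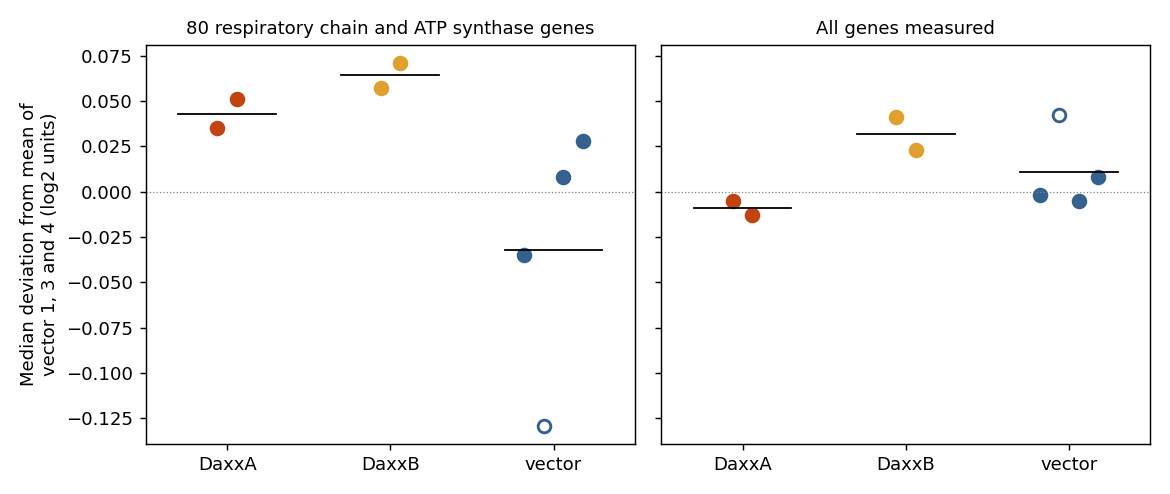
Median deviation (log2 units) from the mean of vector replicates 1, 3 and 4, per array, for the 80 subunit genes (left) and all genes (right); points are arrays by group, bars are group means and the open point is vector replicate 2. In the subunit genes the 4 Daxx arrays lie between 0.035 and 0.071 and vector replicate 2 at -0.13.

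The Daxx groups were next set against vector separately, with the vector arrays shared by both comparisons. Ppargc1a fell by 1.28 in DaxxA (2.42-fold, limma adjusted p = 0.000422) and by 1.36 in DaxxB (2.56-fold, adjusted p = 0.000323). It was the 1 gene of 85 called in DaxxA on 8 arrays, where 1.97% of all genes were called (0.522% higher and 1.45% lower). In DaxxB 2 of 85 were called, where 2.69% of all genes were (0.767% higher and 1.92% lower). They were Ppargc1a and Ndufa8, which rose by 0.34 (adjusted p = 0.0449). The Ndufa8 call in DaxxB was lost when any 1 of the 7 arrays other than vector replicate 2 was left out.

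On 7 arrays, 8 of 85 genes rose and 1 fell in DaxxA, where 4.46% and 6.8% of all genes did so. In DaxxB 13 rose and 4 fell on 7 arrays, where 10.9% and 9.53% of all genes did so. Those that fell in DaxxB were Ppargc1a, Tfam (-0.41, limma adjusted p = 0.0119), Ndufs1, the large iron-sulfur subunit of complex I (-0.18, adjusted p = 0.0297), and Atp5md (-0.25, adjusted p = 0.0215). The 13 that rose in DaxxB were Ppargc1b, Ndufa6, Ndufa7, Ndufa8, Ndufa10, Ndufb11, Sdhb, Uqcrh, Uqcrq, Cox7a1, Cox7a2l, Atp5g3 and Atp5mpl. Sdhb of complex II rose in DaxxB by 0.21 (limma adjusted p = 0.0399) and was not called in DaxxA (adjusted p = 0.202). Atp5mpl rose in both, by 0.42 in DaxxA and 0.58 in DaxxB.

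Between DaxxA and DaxxB, limma called 0 of 85 genes and 0% of all genes on 8 arrays. At an unadjusted p under 0.05 there were 1 of 85 and 846 of all genes. Ppargc1a differed by 0.08 (95% interval -0.11 to 0.28). On 7 arrays 2.15% of all genes were called (0.787% higher in DaxxA), and Tfam was the 1 of 85, higher by 0.47 in DaxxA (95% interval 0.24 to 0.69, adjusted p = 0.0489). Among the subunit genes, 34 of 80 (42.5%) had a value above 0 for DaxxA minus DaxxB, with a median of -0.018. Over all genes 36.2% did, with a median of -0.036.

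Other genes of mitochondrial metabolism were read from 7 lists of 124 genes, chosen by function. On 8 arrays 1 of them rose and 1 fell, and on 7 arrays 10 rose and 5 fell, with medians of 0.038 and 0.012. Over all genes 1.8% were called higher and 2.73% lower on 8 arrays, and 5.26% and 7.57% on 7, and the counts by list below stand beside the same shares. Yy1, a zinc finger factor that recruits PGC-1 alpha to mitochondrial genes in muscle, read 10.33 and 10.46 in DaxxA, 10.38 and 10.32 in DaxxB, and 9.98, 9.83, 9.98 and 10.07 in vector. Its groups did not overlap, and it rose by 0.41 (SE 0.0648, limma adjusted p = 0.00914). Cpt1a, the enzyme that admits long-chain fatty acids to the mitochondrion, read 9.55 and 9.45 in DaxxA, 9.64 and 9.63 in DaxxB, and 9.90, 9.74, 9.92 and 9.99 in vector. It fell by 0.32 (SE 0.0717, adjusted p = 0.0412), with all Daxx values under all vector values. The call was lost when any 1 of the 7 arrays other than vector replicate 2 was left out (adjusted p from 0.0791 to 0.127), and when each array was centred on its median (0.077).

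By list, the 38 assembly factors of the complexes had 0 genes called on 8 arrays and 5 higher on 7. Among the latter, Ndufaf4, which assembles complex I, rose by 0.25 (limma adjusted p = 0.0168), Sdhaf3, which assembles complex II, by 0.23 (adjusted p = 0.0155) and Ttc19, which maintains complex III, by 0.20 (adjusted p = 0.00965). The 22 genes of the citrate cycle and pyruvate entry had 0 called on 8 arrays, and 2 higher and 2 lower on 7. Of these, Pdk2, a kinase that inhibits pyruvate dehydrogenase, fell by 0.32 (adjusted p = 0.00406) and Pdhx, a component of that enzyme, rose by 0.20 (adjusted p = 0.0249). The 22 genes of fatty acid oxidation and uncoupling had Cpt1a lower on 8 arrays, and 1 higher and 3 lower on 7. Acadl, a dehydrogenase of long-chain acyl groups, rose by 0.26 (adjusted p = 0.0104) and Echs1, the enoyl hydratase, fell by 0.38 (adjusted p = 0.006), both on 7 arrays.

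The 18 genes of mitochondrial DNA maintenance and expression had Yy1 as the called gene on 8 and on 7 arrays. Of the 11 respiratory chain genes outside the symbols used, 0 were called on 8 arrays and 1 on 7, and the 11 genes of fusion, fission and turnover had 0 on both. The 2 mitochondrially encoded genes on the array, ND3 of complex I and COX2 of complex IV, were identified through the reference after their values were seen. ND3 read 12.70 and 12.91 in DaxxA, 12.35 and 12.53 in DaxxB, and 12.68, 12.76, 12.73 and 12.72 in vector. COX2 read 13.09 and 13.28 in DaxxA, 12.86 and 13.02 in DaxxB, and 13.11, 13.37, 13.16 and 13.11 in vector. Neither ND3 nor COX2 was called by limma for Daxx minus vector (adjusted p = 0.707 and 0.643).

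Markers of other cells are given because Ppargc1a is used more in fat and muscle than in fibroblasts. Of 8 adipocyte markers 0 were called and 7 read under 6.07, with a summed log2 level of 42.11 to 42.85 in the Daxx arrays and 42.34 to 48.11 in the vector arrays (42.34 to 42.66 without vector replicate 2). A value above 0 was found for 0 of these 8 on 8 arrays (median -0.18) and for 5 on 7 arrays (median 0.036). Of 10 skeletal and heart muscle markers 1 was called, Tnnt2, a cardiac troponin, which rose by 0.50 (limma adjusted p = 0.0196), and 2 read under 6.07. The Tnnt2 call was lost without vector replicate 1, 3 or 4, DaxxA replicate 1 or DaxxB replicate 1 (adjusted p from 0.0535 to 0.0734). Of the 10 markers 2 had a value above 0 on 8 arrays (median -0.079) and 7 on 7 arrays (median 0.044). Their summed level was 65.52 to 66.67 in the Daxx arrays and 64.38 to 69.99 in the vector arrays (64.38 to 65.52 without vector replicate 2). Of 10 fibroblast markers, 1 rose, 3 fell and 6 did not pass, and 5 had a value above 0 (median -0.11). Col1a2, a chain of type I collagen, rose by 0.31 (limma adjusted p = 0.0398). Those that fell were Prrx1, a mesenchymal homeobox factor, by 1.07, Pdgfra by 0.82 and Pdgfrb by 0.70, with limma adjusted p-values of 0.0119 or lower. Pdgfra and Pdgfrb encode receptors of platelet-derived growth factor. Of 7 male germ cell markers, 5 of macrophages, 4 of epithelium and 3 of endothelium 0 were called, and 6, 4, 2 and 3 of them read under 6.07. The fibroblast sum was 94.94 to 96.37 in the Daxx arrays and 97.75 to 98.33 in the vector arrays, with Prrx1, Pdgfra and Pdgfrb lower and Col1a2 higher where Ppargc1a was lower. The part of these markers in its difference was not tested.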

How the data were processed

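Total RNA of 8 samples was hybridised to Affymetrix mouse arrays. The deposited table holds log2 values from the RMA method in Affymetrix Expression Console, per the submitters' processing notes. RMA corrects background, quantile-normalizes the arrays and summarises probes, so differences near background are compressed and a shift common to most genes is removed. The software version and the genome build of the probe annotation were not given in the sources used here. Depth has no meaning for arrays, and their number limits the precision.

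Of 35556 probe sets, 21789 had 1 gene symbol in the platform annotation, 1621 several and 12146 none. The first gave 19938 genes. The tests were lmFit and eBayes of limma 3.58.1 (R 4.3.3), with Benjamini-Hochberg adjustment over all genes and a call at an adjusted p under 0.05. Daxx minus vector used 2 conditions, and DaxxA and DaxxB a fit of 3 groups. No filter on dim genes was applied in these fits. The scripts were tested on simulated data. SE and intervals (95%) come from limma.

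The genes of the set, the pathway lists and the tests were chosen with earlier results of these data known, vector replicate 2 included. Named were the 5 regulators, called genes, the highest and lowest gene of each complex, the isoform pairs, up to 3 called genes per list on 8 arrays, and genes called on 7 arrays. Alternatives were each array left out, quantile normalization, centring, array weights, a filter on dim genes, the mean of probe sets, a trended robust prior, other groupings and a replicate block. Promoters were matched by gene number to RefSeq windows.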

Additional observations from a re-analysis of the deposited data

Results flagged for a closer look

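Among 74 groups of 4 arrays tested for a lone array, 8 held an array whose gap to its nearest neighbour, relative to the range, passed Dixon's 95% critical value, which chance does in about 1 of 20 groups. In 6 of the 8 that array was vector replicate 2. It read 7.60 for Nrf1 (others 8.14 to 8.19), 7.60 for Esrra (7.24 to 7.29), 5.72 for Cox7b2 (4.63 to 4.65), 8.85 for Cox4i1 (9.20 to 9.28), 6.06 for Cox6b2 (5.68 to 5.75) and 10.30 for Cox6b1 (10.64 to 10.69). The other two were DaxxB replicate 2 for Cox7b2, at 4.76 (4.69 to 4.70), and DaxxB replicate 1 for Cox6b1, at 10.83 (10.62 to 10.65).

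A difference between the Daxx groups was called for 2 of the named genes when vector replicate 2 was left out, where 2.15% of all genes were called. Tfam was higher in DaxxA than in DaxxB by 0.47 (limma adjusted p = 0.0489), and Pdgfra, a fibroblast marker, was lower in DaxxA, with a difference of -0.35 (adjusted p = 0.031). On 8 arrays neither passed. Vector replicate 2 does not enter the difference between the Daxx groups, only the shared estimate of the spread. For Tfam the difference was the same on both sets of arrays, with an SE of 0.232 on 8 and 0.104 on 7.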

How the results depend on the processing

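Ppargc1a kept its direction and call for Daxx minus vector under all 17 settings (-1.34 to -1.07, limma adjusted p from 3.07e-09 to 0.00819). Of 85 genes, 3 were called for Daxx minus vector, 1 for DaxxA, 2 for DaxxB and 0 between them. Leaving out 1 array gave 1 to 11, 1 to 9, 1 to 17 and 0 to 1, the highest each without vector replicate 2, where 12.8%, 11.3%, 20.5% and 2.15% of all genes were called. The median difference ran from 0.056 to 0.098 (0.070 on 8 arrays). For Daxx minus vector the count, with the share of all genes called, was 6 under quantile normalization (7.16%), 17 with array weights (16.2%), 7 above the dim filter (10.3%), 9 with the trended prior (6.46%) and 16 under quantile normalization without vector replicate 2 (14.3%), a setting chosen after seeing the data. For DaxxA it was 12 with weights (13.6%) and 11 under the last setting (12.3%). For DaxxB it was 5 under quantile normalization (5.33%), 1 after centring (2.09%), 19 with weights (21.3%), 5 above the filter (7.18%), 6 with the trended prior (4.52%), 1 with only the groups compared (1.39%) and 18 under the last setting (18.8%). Between DaxxA and DaxxB weights called 2 (2.43%). The causes were not tested. The array weight of vector replicate 2 was 0.0521, and those of the others 0.977 or more.

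With the replicate number as a block, 1 gene was called for Daxx minus vector (0.813% of all genes) and 0 for DaxxA and for DaxxB (0% of all genes), where Ppargc1a fell by 1.27 (adjusted p = 0.117) and 1.36 (0.111), and the median was 0.13. Deviations of same-numbered arrays from their group means correlated at 0.0238 to 0.162. With 2 arrays in each Daxx group, these values cannot settle whether same-numbered samples were paired.

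Among uncalled genes, leaving out 1 array turned the sign of Tfam (-0.181 to 0.089), Uqcr11 (-0.184 to 0.051), Esrra (-0.065 to 0.056), Cox7b2 (-0.287 to 0.075), Cox6a2 (-0.099 to 0.028), Cox6b2 (-0.059 to 0.095), Cox7a1 (-0.040 to 0.125), Cox7a2 (-0.040 to 0.054) and Cox8a (-0.033 to 0.026). The block turned Tfam (0.157), Sdhd (0.025), Uqcr11 (0.058), Cox6b2 (-0.089), Cox7a1 (-0.101) and Cox8a (0.048). Quantile normalization turned Cox7a2 (-0.024) and Cox8a (0.011), and centring Cox8a (0.017). Weights turned Esrra (0.060), Cox7b2 (0.068) and Cox7a2 (-0.027), and quantile normalization without vector replicate 2 turned Esrra (0.066), Cox7b2 (0.056), Cox6a2 (0.023) and Cox7a2 (-0.019).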
